A study of Mus musculus with 9 samples.

Results

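Signalling from Toll-like receptors and interleukin-1 receptors runs through a short set of cytoplasmic proteins, and 10 of their genes were measured here: Myd88, its partner adaptors Tirap, Ticam1 and Ticam2, the kinases Irak1, Irak2, Irak3 and Irak4, the ubiquitin ligase Traf6, and the regulator Tollip. They were chosen by symbol, as the classical first steps of the route, and all 10 were found among the 37187 genes of the table for LSK cells and the 45076 genes of the table for neutrophils. The libraries were bulk polyA RNA-seq of sorted mouse bone marrow from animals aged 4 to 12 weeks that were either Spop(+/+), called wild type here, or Spop(D/D), called knockout. LSK cells (lineage-negative, Sca-1-positive, Kit-positive stem and progenitor cells) gave 2 wild-type and 2 knockout libraries, and Ly6G+ neutrophils gave 2 wild-type and 3 knockout libraries. The labels name neither the driver of the deletion nor any treatment, and they do not say whether replicates came from separate animals, and every p-value therefore rests on library-to-library spread alone, part or all of which could be technical. The title of the series names the protein MyD88 as a target of Spop, the substrate-binding part of a cullin-3 ubiquitin ligase. The files hold RNA and not protein, so the question addressed here is what the transcripts of Myd88 and of its partners did in the knockout.

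After a receptor binds its ligand, MyD88 joins the receptor's TIR domain and gathers IRAK4, then IRAK1 and IRAK2, into a complex called the myddosome. The IRAKs then engage TRAF6, whose ubiquitin chains activate the kinases TAK1 and IKK and, through them, the transcription factor NF-kB. Tirap bridges MyD88 to some receptors, Ticam1 (TRIF) and Ticam2 (TRAM) serve a separate adaptor route that leads to interferon regulatory factors, and Irak3 (IRAK-M) and Tollip are known mostly as brakes. In marrow the route lets progenitors and neutrophils sense microbial products and inflammatory cytokines.

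The sequence just before the transcription start is shown for Myd88 and Irak2, the members whose transcripts passed the test in LSK cells. Myd88 lies on chromosome 9 from 119335934 to 119341411 on the minus strand (GRCm38), and Irak2 lies on chromosome 6 from 113638467 to 113695026 on the plus strand. The windows below are the 250 bases before the RefSeq start (GRCm38.p6), at chr9:119340019-119340268 on the minus strand for Myd88 and at chr6:113638217-113638466 on the plus strand for Irak2, written 5′ to 3′. The Myd88 window lies inside the annotated limits of the gene, so at least 1 of its 3 annotated transcripts starts farther upstream. The bases before that start were not searched. Capitals mark matches to 6 motifs searched on both strands.

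Myd88: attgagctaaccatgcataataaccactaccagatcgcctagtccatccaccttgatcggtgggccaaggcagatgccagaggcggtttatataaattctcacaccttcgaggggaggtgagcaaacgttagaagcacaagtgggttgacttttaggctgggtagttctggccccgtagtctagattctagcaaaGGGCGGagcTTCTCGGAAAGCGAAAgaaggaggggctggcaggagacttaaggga

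Irak2: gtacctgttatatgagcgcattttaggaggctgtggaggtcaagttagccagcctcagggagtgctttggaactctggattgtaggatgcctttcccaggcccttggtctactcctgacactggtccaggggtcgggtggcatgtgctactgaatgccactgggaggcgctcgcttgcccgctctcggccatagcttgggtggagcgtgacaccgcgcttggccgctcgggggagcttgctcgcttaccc

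The capitals in the Myd88 window are an SP1 box GGGCGG that begins 55 bases before the start, a GAS match TTCTCGGAA that begins 46 bases before it and an ISRE match GAAAGCGAAA that begins 40 bases before it. GAS and ISRE are the elements known to bind STAT and interferon regulatory factors, and the matches overlap each other. The Irak2 window held no match. The letters searched were GAAA, 2 free bases and GAAA for the ISRE, TTC, 3 free bases and GAA for the GAS, GGG, 3 free bases and TTCC for NF-kB, GAGGAAGT for ETS, TTGCGNAA for C/EBP and GGGCGG for SP1. Among 32851 windows of the same length, 2.98% held the ISRE letters, 7.02% the GAS letters, 4.65% the NF-kB letters, 2.44% the ETS letters, 0.670% the C/EBP letters and 32.7% the SP1 letters. Of the 9 members with a window, Myd88 alone had an ISRE or GAS match, and none had an NF-kB, ETS or C/EBP match. A match is a description of the letters and shows no binding.

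The libraries held 18827892 to 20264417 counted reads in LSK cells and 21012702 to 27434086 in neutrophils, and 3 reads corresponded to between 0.0907 and 0.184 CPM, the count of a gene relative to the size of its library. Every member lay above that level in every library, from 47 reads (Ticam2, neutrophils) to 8732 reads (Myd88, neutrophils), and all 10 passed the filter on low counts in both populations. The neutrophil marker Ly6g had 0 reads in all 4 LSK libraries and 2837 to 19224 reads in the neutrophil libraries. LSK knockout replicate 2 is called LSK by its title and source, whereas its cell type field says neutrophil, so the members' test results in LSK cells, and the counts and medians over members and lists, are also given without it. The wild-type neutrophil replicate 2 stood apart, with a neutrophil marker sum of 36793 CPM against 204612 to 642660 in the other 4 libraries, and with sums of 25189 for MHC class II and dendritic cell genes and 1791 for B cell genes, against at most 553 and 67.9 elsewhere. Knockout neutrophil replicate 3 held the highest neutrophil marker sum and the highest red cell sum, 18465 CPM. Spop itself read 380 and 390 CPM in wild-type LSK cells and 312 and 306 in knockout LSK cells (log2 fold change -0.32, adjusted p = 0.0118), and in neutrophils 135 and 194 against 158, 178 and 210 (log2 fold change 0.15, adjusted p = 0.901). The labels do not give the deleted part of the gene, so a gene-level count does not check the deletion.

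Myd88 rose 2.07-fold in knockout LSK cells, and of the other 9 members Irak2 alone passed the test, in the opposite direction. Its CPM, scaled by the trimmed mean of M values (TMM) within the population, was 79.7 and 76.1 in the wild-type libraries and 152 and 170 in the knockout libraries. Both knockout values lay above both wild-type values, and the gap between the groups was far wider than the spread within them. The log2 fold change was 1.05 (SE 0.105, 95% interval 0.82 to 1.27), with adjusted p = 9.44e-06 by edgeR's quasi-likelihood test with Benjamini-Hochberg adjustment over 13008 genes. In this comparison 42.2% of all genes tested passed the same threshold of 0.05, with 21.0% of all genes higher and 21.2% lower, and 4.51% passed while at least 2-fold higher. By p, Myd88 ranked 319 among the 13008 genes. In bulk RNA, fewer or more cells of a type and less or more RNA per cell cannot be told apart. The summed CPM of 8 granulocyte-monocyte precursor markers moved with it, from 1660 and 2198 in wild-type to 16212 and 18993 in knockout LSK libraries, that of 10 monocyte and macrophage markers went from 247 and 294 to 1184 and 1736, and that of 8 LSK markers from 4590 and 4336 to 2586 and 2839. All 8 precursor markers, Mpo and Elane among them, were higher in both knockout than in both wild-type LSK libraries, as were 6 of 10 monocyte and macrophage markers, while C1qa, C1qb and C1qc of that list were lower, and 7 of 8 LSK markers were lower. None of the precursor or monocyte markers was at 0 in every LSK library. The part of this shift in the Myd88 difference was not tested. Without knockout replicate 2 the log2 fold change of Myd88 was 0.97 (adjusted p = 2.24e-12). When all 9 libraries shared 1 estimate of spread, the log2 fold change was 1.06 and the call ended (adjusted p = 0.510), as it did for every gene in LSK cells.

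**Figure D1:**
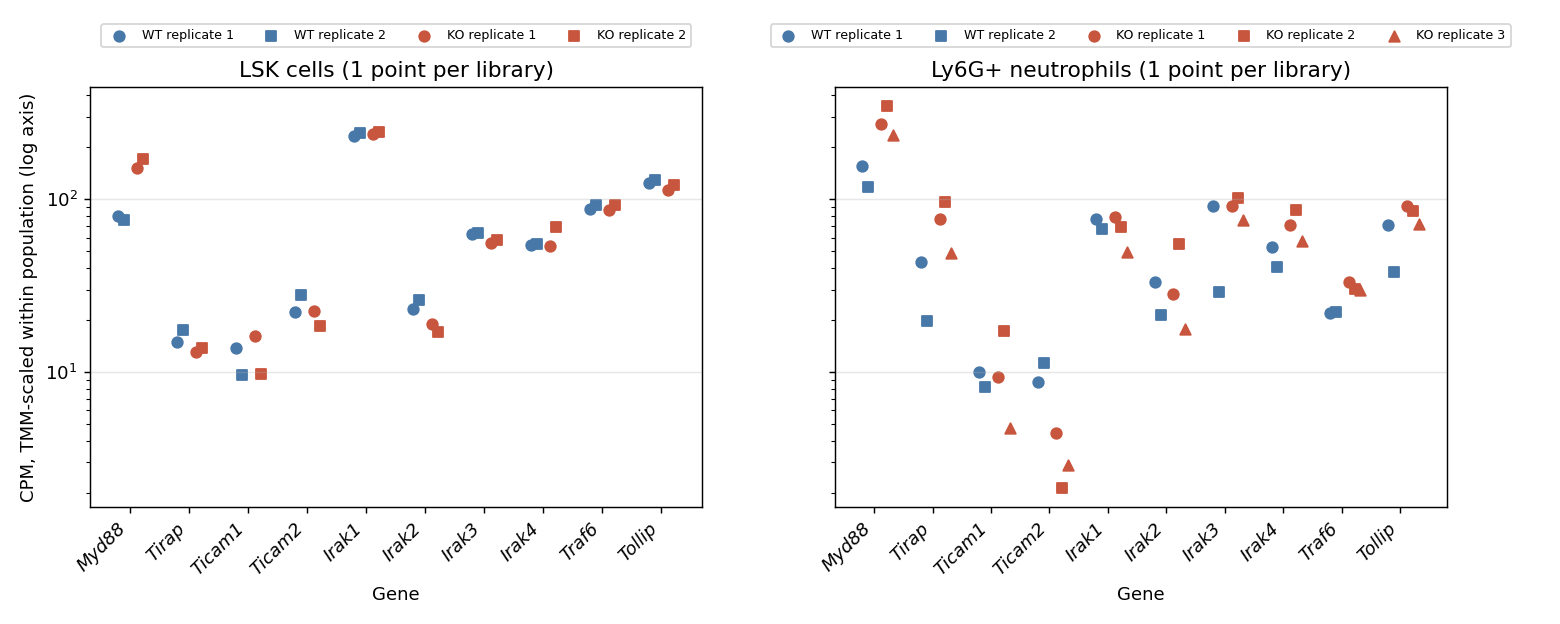
Level of each of the 10 genes in every library, as TMM-scaled CPM on a log axis, for LSK cells (left) and Ly6G+ neutrophils (right). Blue points are wild-type and red points knockout libraries, and the point shape gives the replicate number. In LSK cells Myd88 stood at 152 and 170 CPM in the knockout against 79.7 and 76.1 in the wild type, whereas the wild-type and knockout points of Irak1 lay at nearly the same height, as did those of Traf6.

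The adaptors that work beside Myd88 did not pass the test in LSK cells. Tirap, which brings MyD88 to the membrane, read 14.9 and 17.5 CPM in wild-type and 12.98 and 13.8 CPM in knockout libraries, with a log2 difference of -0.27 (adjusted p = 0.282). Ticam2, the adaptor known as TRAM, read 22.3 and 27.8 against 22.7 and 18.5 CPM (log2 difference -0.28, adjusted p = 0.238). Ticam1, the adaptor known as TRIF, read 13.8 and 9.57 against 16.2 and 9.74 CPM (log2 difference 0.15, adjusted p = 0.693). The Tirap groups did not overlap, whereas those of both Ticam genes did. When knockout replicate 2 was left out, the log2 differences were -0.32 for Tirap (adjusted p = 0.317), -0.14 for Ticam2 (adjusted p = 0.606) and 0.48 for Ticam1 (adjusted p = 0.126). Per kilobase of exon, the 4 TIR adaptors could be compared with each other, and Myd88 made up 72.9% and 71.9% of their summed CPM per kb in the wild-type LSK libraries and 83.1% and 87.7% in the knockout libraries. The summed level of the adaptors was 42.4 and 41.1 CPM per kb in the wild type and 71.0 and 75.3 in the knockout.

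Among the IRAK kinases, Irak2 alone passed the test in LSK cells, and it fell. This kinase, which sustains the signal once IRAK4 has been engaged, read 23.3 and 26.2 CPM in wild-type and 18.9 and 16.9 CPM in knockout libraries. Its groups did not overlap, and its log2 fold change was -0.47 (SE 0.173, 95% interval -0.84 to -0.09, adjusted p = 0.0452 by edgeR's quasi-likelihood test). The result sat at the edge of the threshold, and 3 of 10 alternatives kept the call. Adjusted p was 0.0179 with upper-quartile scaling and 0.0410 with the replicate number as a block. Adjusted p was 0.0518 with median-ratio scaling, 0.0941 with DESeq2, 0.0542 without the filter and 0.920 with all 9 libraries in 1 fit. It was 0.0911 without wild-type replicate 1, 0.241 without wild-type replicate 2 and 0.122 without knockout replicate 2, and the log2 fold change lay between -0.56 and -0.38 in these and the remaining alternatives.

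The other kinases and the proteins below them did not pass the test. Irak1, the most abundant kinase of the family per kb in LSK cells, read 234 and 241 CPM in wild-type and 238 and 246 CPM in knockout libraries, with a log2 difference of 0.03 (adjusted p = 0.804). Irak4, the kinase that opens the complex, read 54.3 and 55.4 against 53.6 and 69.5 CPM (log2 difference 0.17, adjusted p = 0.357). Knockout replicate 2 alone was high for Irak4: without knockout replicate 1 the log2 fold change was 0.38 with adjusted p = 0.0245, and without knockout replicate 2 it was -0.03. Irak3, the IRAK that lacks normal kinase activity and acts as a brake, read 62.7 and 63.7 against 56.0 and 58.2 CPM (log2 difference -0.15, adjusted p = 0.331). Tollip, an inhibitor that binds IRAK1, read 124 and 129 against 114 and 122 CPM (log2 difference -0.10, adjusted p = 0.438). Both brakes lay slightly lower in each knockout library than in either wild-type library. Traf6 read 87.5 and 93.3 CPM in the wild type and 86.5 and 92.6 CPM in the knockout, so that its groups overlapped almost fully (log2 difference -0.01, adjusted p = 0.933). Leaving out knockout replicate 2 gave log2 differences of 0.012 for Irak1 (adjusted p = 0.937), -0.17 for Irak3 (adjusted p = 0.364), -0.15 for Tollip (adjusted p = 0.331) and -0.060 for Traf6 (adjusted p = 0.745).

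Counted over the 10 members, 1 rose, 1 fell and 8 did not pass in LSK cells, where 42.2% of all genes tested were called. An unadjusted p under 0.05 was found for 2 of the 10, Myd88 and Irak2, and for 50.1% of all genes. The groups did not overlap for 5 members (Myd88 higher; Tirap, Irak2, Irak3 and Tollip lower), against 72.9% of all genes tested, of which 34.6% were higher and 38.3% lower in the knockout. The median log2 difference of the members was -0.06, that of the 9 without Myd88 was -0.10 with a range of -0.47 to 0.17, and that of all genes tested was -0.03. Without knockout replicate 2, Myd88 was the 1 member called beside 42.1% of all genes, and the median of the 10 was -0.10. As a ratio per kb within each library, Myd88 to Irak4 stood at 2.68 to 2.86 in wild-type and at 4.77 to 5.52 in knockout LSK cells. Myd88 to Traf6 went from between 2.50 and 2.79 to between 5.38 and 5.62. All 9 ratios of Myd88 to another member were higher in both knockout than in both wild-type libraries, so this holds for knockout replicate 1 alone. The 9 ratios share Myd88 as numerator, so they restate its rise and are not 9 separate results.

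**Figure D2:**
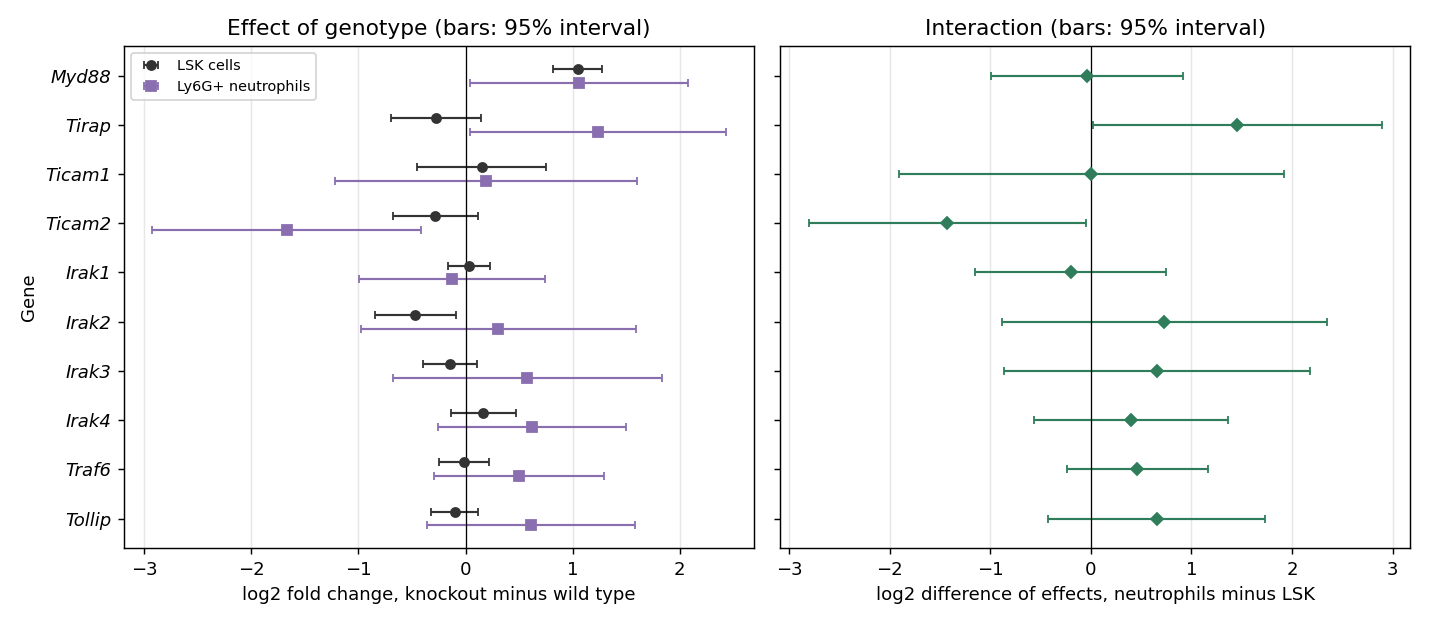
Log2 fold change of knockout against wild type for each gene in LSK cells and neutrophils (left) and the difference between the effects, neutrophils minus LSK (right). Points are estimates and bars their 95% intervals. Myd88 had nearly the same estimate in both populations, 1.05 and 1.06, with a wider bar in neutrophils, and the bars of Tirap and Ticam2 in the right panel only just left 0.

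In neutrophils Myd88 had about the same estimated difference, with a larger spread, and no member passed the test. Myd88 read 156 and 118 CPM in the wild-type libraries and 274, 345 and 236 CPM in the 3 knockout libraries. After TMM scaling, every knockout library lay above both wild-type libraries. The scaling factors ran from 0.620 (knockout replicate 3) to 1.58 (wild-type replicate 2). Before scaling, knockout replicate 3 held 3866 Myd88 reads of 26373612, a smaller share than 4376 of 25897464 and 3897 of 21012702 in the wild type. The part of the scaling in this difference was not tested. The log2 difference was 1.06 (SE 0.431, 95% interval 0.04 to 2.08), with an unadjusted p of 0.0435 and adjusted p = 0.345 by edgeR's quasi-likelihood test. Here 0% of the 12836 genes tested passed (0 genes), and 1787 of them (13.9%) had an unadjusted p under 0.05. DESeq2 called 932 of the 21977 genes with any read (4.24%), among them genes it may leave without an adjusted p. The biological coefficient of variation over all genes was 0.608 in neutrophils against 0.126 in LSK cells. Without the wild-type replicate 2, which carried the B cell and MHC class II transcripts, the log2 difference of Myd88 was 0.84 (adjusted p = 0.597). With that library and knockout replicate 3 both left out, an alternative chosen after seeing the data, it was 0.97 (adjusted p = 0.229).

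Ticam2 and Tirap had the largest differences in opposite directions among the neutrophil adaptors, though neither passed the test after adjustment. Ticam2 read 8.79 and 11.3 CPM in wild-type and 4.44, 2.13 and 2.87 CPM in knockout neutrophils, and the groups did not overlap. Its log2 difference was -1.67 (SE 0.530), with an unadjusted p of 0.0160 and adjusted p = 0.244 by edgeR. DESeq2 gave -1.71 with adjusted p = 0.0433, where 4.24% of the genes with any read passed. Tirap read 43.3 and 19.7 CPM in wild-type and 77.0, 96.5 and 48.8 CPM in knockout neutrophils, again without overlap. Its log2 difference was 1.23 (unadjusted p = 0.0441, adjusted p = 0.345), and without wild-type replicate 2, the lowest Tirap library, it was 0.74 (adjusted p = 0.660), whereas without wild-type replicate 1 it was 1.97 (adjusted p = 0.103). Ticam1 read 10.04 and 8.19 against 9.36, 17.1 and 4.71 CPM (log2 difference 0.19, adjusted p = 0.912), and its knockout libraries lay on both sides of the wild type. Myd88 made up 81.6% and 84.0% of the TIR adaptors per kb in wild-type and 84.5%, 83.9% and 88.5% in knockout neutrophils, and these groups overlapped.

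The neutrophil kinases, Traf6 and Tollip did not pass the test either. Irak4 read 53.2 and 40.3 CPM in wild-type and 70.9, 86.6 and 57.5 CPM in knockout neutrophils (log2 difference 0.62, adjusted p = 0.4998). Traf6 read 22.0 and 22.1 against 33.3, 30.3 and 29.9 CPM (log2 difference 0.50, adjusted p = 0.547). Both were higher in each knockout library than in either wild-type library. Tollip read 71.0 and 37.8 against 91.4, 85.5 and 72.2 CPM (log2 difference 0.61, adjusted p = 0.545), and without wild-type replicate 2 the difference was 0.19. Irak3 read 91.3 and 29.0 against 90.8, 102 and 76.2 CPM (log2 difference 0.58, adjusted p = 0.661). For Irak3 the wild-type replicate 2 was the single low library, and without it the difference was -0.06 (adjusted p = 0.970), whereas without wild-type replicate 1 it was 1.69 (adjusted p = 0.0892). Irak1 read 76.7 and 67.5 against 79.4, 69.5 and 49.3 CPM (log2 difference -0.13, adjusted p = 0.906). Irak2 read 33.1 and 21.5 against 28.3, 55.3 and 17.7 CPM (log2 difference 0.31, adjusted p = 0.833), and its knockout libraries enclosed both wild-type values.

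In all, the neutrophil groups did not overlap for 6 members, 5 higher in the knockout (Myd88, Tirap, Irak4, Traf6 and Tollip) and 1 lower (Ticam2), against 34.5% of all genes tested, of which 17.0% were higher and 17.5% lower. For the 5 higher members this lack of overlap held after TMM scaling only. Before it, knockout replicate 3 held fewer reads than either wild-type library for Myd88, Irak4, Traf6 and Tollip, from a larger total. For Tirap it held 797 reads against 1217 and 651, again from a larger total. The median log2 difference was 0.54 over the members and 0.50 without Myd88, beside 0.02 over all genes tested. Without wild-type replicate 2 the median of the members was 0.11 beside 0.08 over all genes, and without wild-type replicate 1 it was 0.80 beside -0.04. With wild-type replicate 2 and knockout replicate 3 both left out, it was 0.35 beside 0.01. The wild-type replicate 2 was the lowest of the 5 libraries for Myd88, Tirap, Irak3, Irak4 and Tollip and the highest for Ticam2. It was also the lowest library for all 10 neutrophil markers and all 8 precursor markers, and the highest for all 8 MHC class II and dendritic cell genes, all 8 T and NK cell genes and 6 of 8 B cell genes. The part of this library's makeup in the member differences was not tested.

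**Figure D3:**
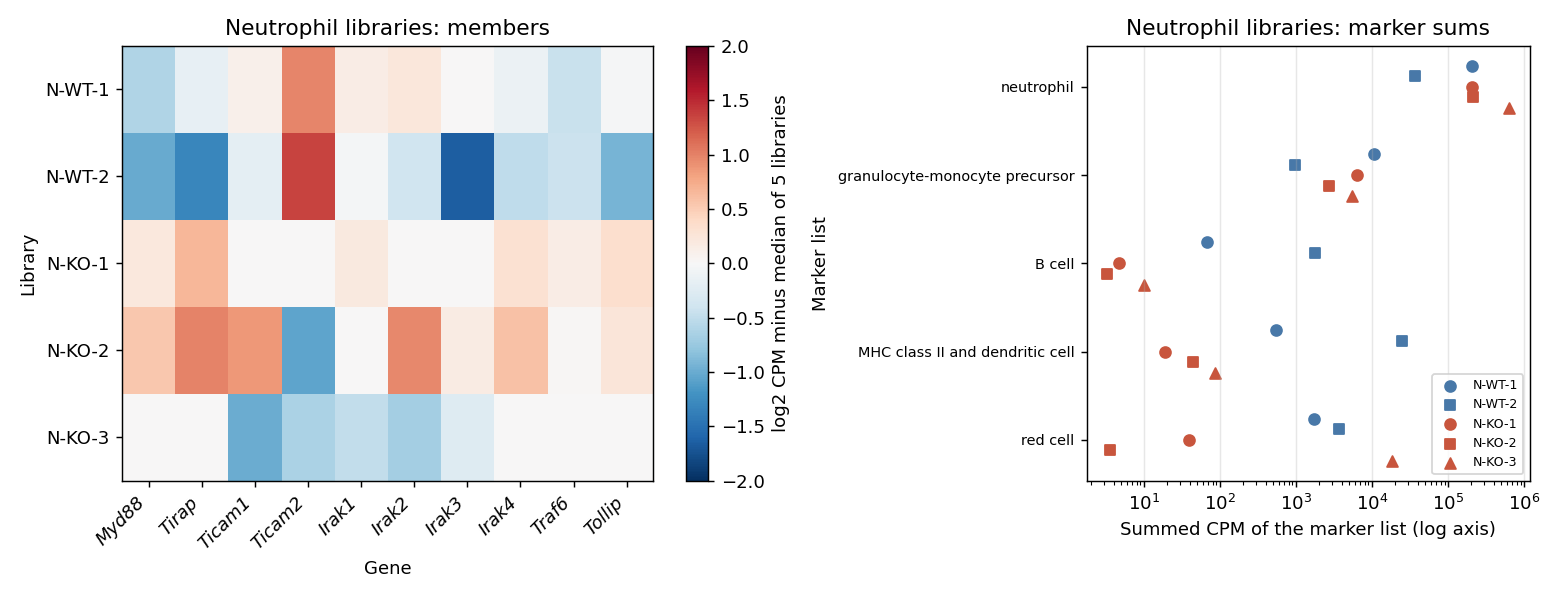
Left: log2 CPM of each gene in each neutrophil library minus the median of the 5 libraries (red higher, blue lower). Right: summed CPM of 5 marker lists in the same libraries on a log axis. Wild-type replicate 2 is deep blue for Tirap and Irak3, with 19.7 and 29.0 CPM, and in the right panel it has the lowest neutrophil sum and the highest B cell and MHC class II sums.

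The genotype effects of the populations were then compared in 1 fit of all 9 libraries with an interaction term. That fit gives both populations 1 shared estimate of spread per gene. Fitted apart, their biological coefficients of variation were 0.608 in neutrophils and 0.126 in LSK cells. The intervals and p-values below therefore do not reflect each population's own spread. For Myd88 the effect in neutrophils minus that in LSK cells was -0.04 on the log2 scale (95% interval -0.99 to 0.92, adjusted p = 0.9999), an interval that leaves room for an effect larger or smaller in neutrophils by nearly the size of the effect itself. Tirap had the largest positive difference, 1.45 (unadjusted p = 0.0478, adjusted p = 0.312), and Ticam2 the largest negative one, -1.43 (unadjusted p = 0.0443, adjusted p = 0.303). No member passed after adjustment with edgeR, against 0.0290% of all genes tested (4 of 13815), and 2 members and 15.7% of all genes had an unadjusted p under 0.05. DESeq2 also called 0 members, against 4.65% of the genes with any read (984 of 21146). After scaling, Tirap and Tollip were lower in each knockout LSK library and higher in each knockout neutrophil library than in the matching wild-type libraries. With all 9 libraries the interaction passed for neither. Of all genes tested, 38.3% were lower in this way in LSK cells and 17.0% higher in neutrophils, and the share that did both was not counted. For Tollip in neutrophils the lowest knockout library, at 72.2 CPM, lay just above the highest wild-type library, at 71.0 CPM. With wild-type neutrophil replicate 2 and knockout neutrophil replicate 3 left out, an alternative chosen after seeing the data, the interaction of Tirap passed (1.22, adjusted p = 0.0326), where 12.9% of all genes did (1831 of 14144). Without wild-type neutrophil replicate 1 the interaction of Tirap was 2.20 (adjusted p = 0.0542), and that of Irak3, 0.66 with all libraries (adjusted p = 0.658), passed at 1.78 (adjusted p = 0.0310), where 9.41% of all genes did (1404 of 14918). Without wild-type neutrophil replicate 2 they were 1.06 (adjusted p = 0.314) and 0.13 (adjusted p = 0.894).

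Levels per kb, taken over the union of annotated exons, gave each population its own order of members. In wild-type LSK cells Irak1 led with 50.3 ± 1.06 CPM per kb (SD, n = 2), followed by Myd88 with 30.2 ± 1.001 and Tollip with 25.0 ± 0.678. Below them came Irak3 (17.2), Traf6 (11.5), Irak4 (10.9), Irak2 (5.61), Ticam2 (4.32), Ticam1 (3.91) and Tirap (3.29), and in that order the ranges of Ticam2 and Ticam1, and those of Ticam1 and Tirap, overlapped. In knockout LSK cells Myd88 stood first with 62.5 ± 4.95 CPM per kb, above Irak1 with 51.4 ± 1.19. Measured over the longest transcript instead of all exons, Tollip (33.4) stood above Myd88 (31.7) in wild-type LSK cells, and the ranges of Myd88 (65.5) and Irak1 (63.2) overlapped in the knockout.

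Wild-type neutrophils had Myd88 first with 53.1 ± 10.4 CPM per kb (SD, n = 2), well above Irak3 with 16.4 ± 12.0 and Irak1 with 15.3 ± 1.38. Tollip (10.8), Irak4 (9.31), Tirap (6.39), Irak2 (6.18), Ticam1 (3.05), Traf6 (2.80) and Ticam2 (1.73) followed, and in that order the ranges of these neighbours overlapped: Irak3 and Irak1, Tollip and Irak4, Irak4 and Tirap, Tirap and Irak2, and Ticam1 and Traf6. In knockout neutrophils Myd88 reached 111 ± 21.4 CPM per kb (SD, n = 3) and Irak3 24.4 ± 3.52, while Ticam2 was last with 0.544 ± 0.204. The ranges of Tollip (16.4), Tirap (15.03), Irak4 (14.3) and Irak1 (14.01) overlapped, as did those of Irak1 and Irak2 (7.65), Irak2 and Traf6 (3.95), and Traf6 and Ticam1 (3.48). Levels of the populations stand side by side without a test, since their tables were made apart.

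Within the IRAK family the shares of Irak1 and Irak3 lay farther apart between the populations than between the genotypes of LSK cells, given here as a description without a test. Irak1 made up 59.9% and 59.8% of the family's summed CPM per kb in wild-type LSK cells and 62.6% and 60.9% in knockout LSK cells, whereas it made up 20.4% to 40.8% in neutrophils. Irak3, the brake, made up 18.5% to 20.6% in LSK cells and 38.4% to 44.4% in neutrophils, except for 22.5% in wild-type replicate 2. Irak2 made up 6.38% and 6.97% in wild-type and 5.30% and 4.47% in knockout LSK cells. The ratio of Myd88 to Irak4 in neutrophils was 5.70 to 5.71 in the wild type and 7.53 to 8.02 in the knockout, and the ratios of Myd88 to Tirap, Irak3 and Tollip overlapped between the genotypes.

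**Figure D4:**
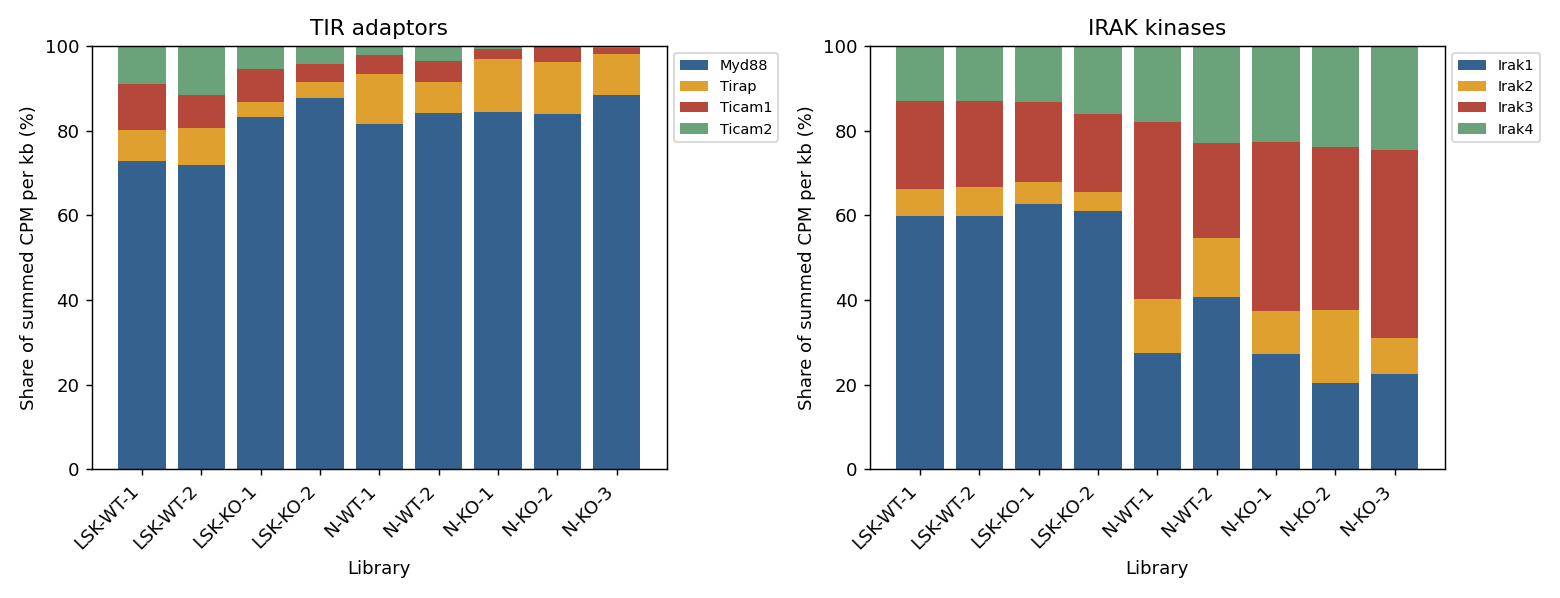
Share of each gene in the summed CPM per kb of its family, in percent, for the 4 TIR adaptors (left) and the 4 IRAK kinases (right), 1 bar per library. The Myd88 share is 72.9% and 71.9% in wild-type and 83.1% and 87.7% in knockout LSK cells. Irak1 fills about 60% of the IRAK bar in LSK cells, and Irak3 the largest part in 4 of the 5 neutrophil libraries.

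Some reads of the members may belong to neighbouring genes, because the strand setting of the counting is not given in the sources used here. Of the exon bases of Myd88, 11.3% lie over exons of Acaa1a on the other strand, and Acaa1a went from a mean of 53.7 CPM in wild-type to 58.6 CPM in knockout LSK cells (log2 difference 0.13, adjusted p = 0.428). In neutrophils Acaa1a read 57.2 and 58.4 CPM on average (adjusted p = 0.981). The Acaa1a estimates in both populations were smaller than those of Myd88. Ticam2 shares 14.5% of its exon bases with Tmed7 on the same strand, and Tmed7 rose in LSK cells (log2 fold change 0.28, adjusted p = 0.0252), the opposite sign to Ticam2. Tirap shares 9.84% with genes on the other strand, among them Srpr (log2 fold change 0.46 in LSK cells, adjusted p = 0.00173). Irak4 shares 7.87% with Twf1 (0.30 in LSK cells), and Irak3 shares 5.98% with genes that include Tmbim4 (-0.09 in LSK cells), and neither passed. In neutrophils the log2 differences were 0.41 for Srpr, 0.46 for Twf1, 0.80 for Tmbim4 and 0.61 for Tmed7, and none passed. There Srpr, Twf1 and Tmbim4 had the sign of the member they overlap, and Tmed7 had the opposite sign. Irak2 shares 4.44% of its exon bases with Gm43963 on the other strand, and Irak1 shares 2.99% with Mir5132 and Mir718 on the same strand. The levels of those overlapping genes were not compared. The part of shared reads in the member differences was not tested.

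The genes whose profile lay nearest to Myd88 were found over the 9 libraries by the root mean square difference of log2 CPM, centred within each population, among 10839 genes. Got2, the mitochondrial aspartate aminotransferase, was nearest at 0.0887, then Rars (arginyl-tRNA synthetase) at 0.128, Dhx29 (a helicase of translation initiation) at 0.140, Sec23b (a coat protein of secretory vesicles) at 0.148 and Prkaa1 (a catalytic subunit of AMP-activated kinase) at 0.161. The median over all genes was 0.680. Got2 read 85.5 and 80.3 CPM in wild-type and 161 and 170 CPM in knockout LSK cells, and 67.5 and 52.0 against 121, 125 and 93.2 CPM in neutrophils. None of the 5 is a member of the route. Among the members Irak4 was nearest, at rank 321 (0.343), followed by Tollip at rank 1130 and Traf6 at rank 1196, and Ticam2 was farthest at rank 9527.

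Around the 10 members, 6 lists of pathway genes were followed in the same fits, and 33 of 85 genes tested passed in LSK cells (38.8%, with 14 higher and 19 lower) beside 42.2% of all genes. Without knockout replicate 2, 30 of 87 passed (34.5%, with 9 higher and 21 lower) beside 42.1% of all genes. Of the 19 receptors and co-receptors tested, 5 rose and 4 fell (47.4% called, median log2 difference 0.03), and without knockout replicate 2 it was 2 and 4 of 20 (median -0.20). Tlr7, a receptor for single-stranded RNA, fell from 50.5 and 53.8 CPM to 19.5 and 19.0 CPM (log2 fold change -1.44, adjusted p = 7.67e-06), and Tlr12 fell by 1.16 on the log2 scale. Il1rl1, the receptor for interleukin-33, rose from 4.01 and 6.99 CPM to 19.5 and 25.5 CPM (log2 fold change 2.03, adjusted p = 0.000121). With that library left out these values were -1.42 for Tlr7, -1.33 for Tlr12 and 1.83 for Il1rl1, and all 3 passed.

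Below Traf6, 2 of the 18 genes of the TAK1 and IKK relay rose and 3 fell (median -0.14). Peli1, a ubiquitin ligase of IRAK1, fell from 132 and 126 CPM to 72.1 and 75.0 CPM (log2 fold change -0.81, adjusted p = 5.87e-05), its relative Peli2 fell by 0.83 and the kinase Map2k7 by 0.50 on the log2 scale. In the TRIF branch, 4 of 12 rose and 1 fell (median 0.14), with Tank (0.58) and Ripk3 (0.46) higher and Irf5, a transcription factor activated through MyD88, lower (-0.67). Among 14 brakes, 1 rose and 4 fell (median -0.06): Nfkbia (-0.62) and Nfkbie (-0.91), which hold NF-kB in the cytoplasm, fell, and Nfkbib (0.59) rose. Without knockout replicate 2 the genes that rose and fell were 2 and 4 of 19 in the relay (median -0.19), 3 and 2 of 12 in the TRIF branch (median 0.06) and 1 and 3 of 14 among the brakes (median -0.10), and the 9 genes named in these lists kept their directions and passed.

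Of 13 NF-kB subunits and response genes tested, none rose and 3 fell in LSK cells (median -0.09). Ccl4, a chemokine gene, fell from 29.9 and 26.2 CPM to 5.79 and 5.48 CPM (log2 fold change -2.31, adjusted p = 3.09e-06), and Ccl3 and Nfkbiz fell by 2.41 and 1.29 on the log2 scale. The last list held 9 genes, called the other TRAF genes here, and was not limited to the TRAF family. It also took in genes that only carry TRAF in their names, Traf3ip2 and Traip among them. Of the 9, 2 rose and 4 fell (median -0.08), with Traf4 at -1.15, Traf3ip2 at -1.01 and Traip at 0.96. Without knockout replicate 2, 0 rose and 4 of 13 fell among the NF-kB genes (median -0.02), with Ccl4 at -2.27, Ccl3 at -2.44 and Nfkbiz at -1.07 (adjusted p = 0.0350), and 1 rose and 4 of 9 fell among the other TRAF genes (median -0.13). Marker sums of several other cell types were lower in the same knockout libraries. The sum of 8 T and NK cell markers went the other way, from 371 and 314 to 496 and 461 CPM, most of it Nkg7. Of these 8 markers 1 was higher and 2 were lower without overlap. The summed CPM of 8 MHC class II and dendritic cell markers went from 1106 and 1105 in wild-type to 450.1 and 571 in knockout LSK libraries, with all 8 lower in both knockout libraries, and that of 8 B cell markers from 208 and 193 to 63.6 and 68.7, with 7 of 8 lower and Pax5 at 0 in both knockout libraries. That of 8 red cell markers went from 1072 and 988 to 392 and 484, with 6 of 8 lower and Hba-a2 and Alas2 at 0 in both knockout libraries. The part of these shifts, and of the precursor and monocyte shift given above, in the changes of the pathway genes was not tested. With upper-quartile scaling, the median of all genes tested in LSK cells moved from -0.03 to -0.12, and the split of called genes went from 2738 higher and 2756 lower to 2207 higher and 3445 lower. The log2 fold change of Myd88 was 0.96 under that scaling. In neutrophils the same scaling moved the median of all genes from 0.02 to -0.12 and the Myd88 estimate from 1.06 to 0.91.

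None of the 87 pathway genes tested in neutrophils passed edgeR's test. An unadjusted p under 0.05, found for 13.9% of all genes, was reached by 9 of 20 receptors, 2 of 19 relay genes, 2 of 12 TRIF branch genes, 1 of 13 brakes, 2 of 14 NF-kB genes and 3 of 9 other TRAF genes. The lists' median log2 differences were 0.36 for receptors, 0.29 for the TAK1 and IKK relay, 0.59 for the TRIF branch, 0.42 for the brakes, -0.10 for NF-kB subunits and response genes and -0.95 for the other TRAF genes, beside 0.02 for all genes. Without wild-type replicate 2, in the same order, they were 1.18, 0.41, 0.31, 0.70, 0.69 and -0.75, beside 0.08 for all genes, so that the NF-kB median changed sign. Cd14, a co-receptor for lipopolysaccharide, read 28.9 and 33.4 CPM in wild-type and 84.1, 314 and 173 CPM in knockout neutrophils (log2 difference 2.61, adjusted p = 0.216). Il1rap, the shared chain of interleukin-1 receptors, read 10.7 in both wild-type libraries and 54.0, 44.1 and 48.0 CPM in the knockout (log2 difference 2.19, adjusted p = 0.207). Irf7, an interferon regulatory factor, read 91.0 and 62.2 against 162, 700 and 203 CPM (log2 difference 2.21, adjusted p = 0.279), with knockout replicate 2 far above the rest. Irf5 read 149 and 215 against 71.9, 71.9 and 29.1 CPM (log2 difference -1.66, adjusted p = 0.240). In these 4 genes the genotypes did not overlap, as in 34.5% of all genes tested. Since the genes were named for small p-values in these same libraries, the lack of overlap is no separate result. Without wild-type replicate 2 their log2 differences were 2.69 for Cd14, 2.16 for Il1rap, 1.93 for Irf7 and -1.40 for Irf5, and none passed. Traf5 and Traf3ip2, at -2.57 and -3.51, were highest in wild-type replicate 2, with 19.2 and 13.1 CPM, the library that also held the B cell and MHC class II transcripts, and without it they were -1.49 and -1.65. Nfkbiz, which fell in LSK cells, read 5.87 and 21.5 CPM in wild-type and 28.3, 30.5 and 53.3 CPM in knockout neutrophils. Cxcl2 read 1.99 and 2.96 against 9.18, 12.3 and 30.9 CPM, and Bcl3 67.4 and 40.3 against 172, 163 and 73.6 CPM. Of the 14 NF-kB genes, 5 were higher and 0 lower without overlap, beside 17.0% and 17.5% of all genes.

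**Figure D5:**
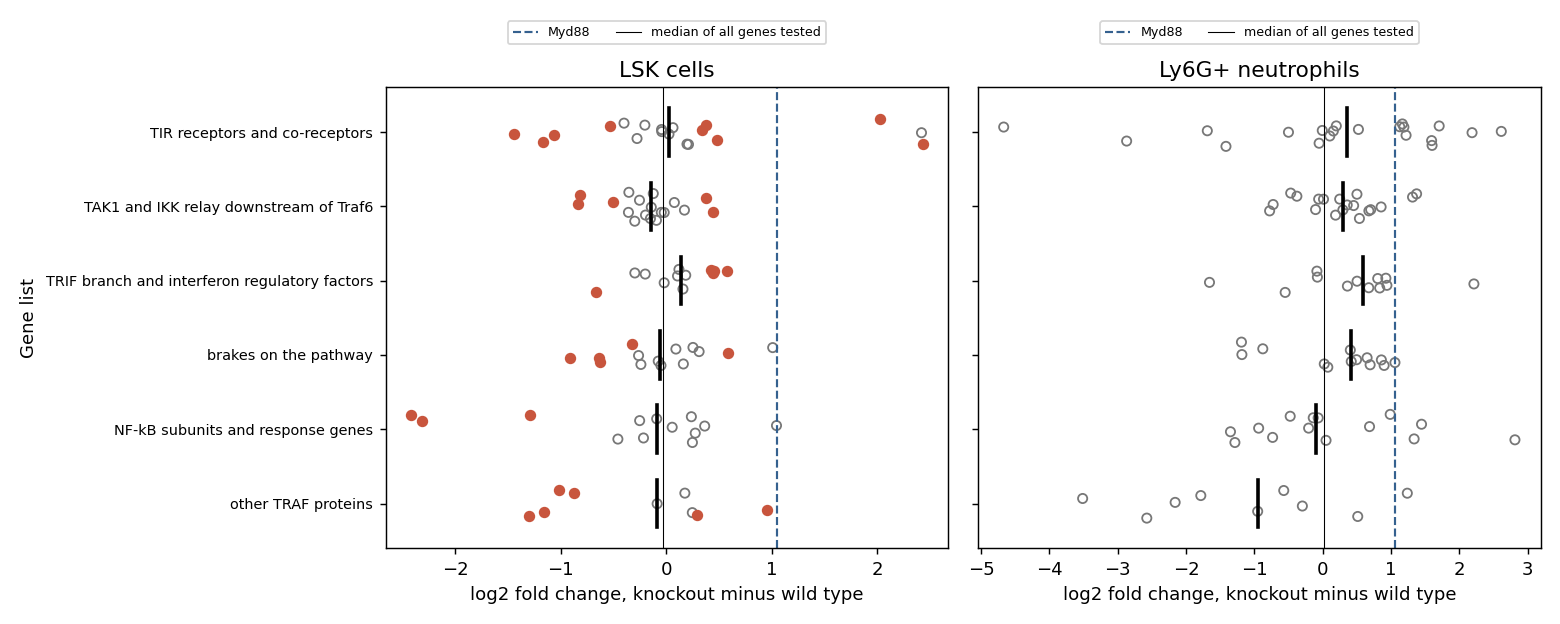
Log2 fold change of knockout against wild type for each tested gene of 6 pathway lists, in LSK cells (left) and neutrophils (right); the horizontal scales of the panels differ. Red filled points passed the threshold, open points did not, black bars are list medians, the thin line is the median of all genes tested and the dashed line is Myd88. In LSK cells 33 of 85 points are red, on both sides of 0, and in neutrophils none is.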

How the data were processed

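Bulk polyA RNA-seq libraries of LSK cells and Ly6G+ neutrophils were made with the SMART-Seq v4 kit, per the labels' protocols. The deposited raw tables hold read counts per gene, made by the authors with bcl2fastq, STAR and featureCounts, and the deposited normalized tables hold a count signal divided by size factors, made with DESeq2; the tools and the builds mm10 and GRCm38 are named per the submitters' processing notes, while software versions and the strand setting are not stated there. The normalized tables served to find the members, and tests used the counts.

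Each population was fitted alone with edgeR 4.0.16 in R 4.3.3 (TMM scaling, filterByExpr by group, robust quasi-likelihood F test), with Benjamini-Hochberg adjustment over all genes tested and a threshold of 0.05. The interaction was fitted over all 9 libraries after joining 35217 genes on their symbols (786 matched on an older one). Exon lengths came from the GRCm38 annotation and promoter windows from RefSeq. Alternatives used DESeq2 1.42.0, other scalings, no filter, 1 shared fit, a replicate block and each library left out; the pathway genes without LSK knockout replicate 2 or without neutrophil wild-type replicate 2 were added after seeing the data. The 10 members and the lists were chosen with earlier results of these data known. Named were all members, Spop, up to 3 genes of each pathway list by smallest p in each population, and the 5 genes nearest to Myd88 by profile over the 9 libraries, with a pseudocount of 0.5; neighbours overlapping a member were added by position.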

Additional observations from a re-analysis of the deposited data

How the results depend on the processing

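In LSK cells Myd88 kept its call in 9 of 10 alternatives, with a log2 fold change of 0.96 to 1.17. It lost the call when all 9 libraries shared 1 fit, where 0 members and 0 of 13815 genes tested were called. The main fit called 5494 genes. Median-ratio scaling, DESeq2 and no filter each left 1 member called in LSK cells (Myd88); leaving out 1 library left 1 to 3 members and 3524 to 5718 genes. Of all genes tested in LSK cells, 42.6% were called with median-ratio scaling and 30.3% with no filter. DESeq2 called 25.6% of the genes with any read in LSK cells. Directions near 0 changed in LSK cells for Irak1 with upper-quartile scaling (-0.061), for Traf6 with median-ratio scaling (0.0093), DESeq2 (0.011) and no filter (0.0080), and, when 1 library was left out, for Ticam1 (-0.22 to 0.48), Irak4 (-0.028 to 0.38) and Traf6 (-0.060 to 0.074). In neutrophils DESeq2 called 1 member (Ticam2) and 932 genes, no filter 334 genes, 1 shared fit 562 and leaving out 1 library 0 to 601, of which 601 came without wild-type replicate 1; the members called stayed at 0 there. The 932 genes called by DESeq2 in neutrophils were 4.24% of the 21977 with any read. DESeq2 may leave some of those genes without an adjusted p, so its shares are not on the same base as edgeR's. Left-out libraries turned Ticam1 (-0.37 to 0.54), Irak1 (-0.30 to 0.042), Irak2 (-0.25 to 0.71) and Irak3 (-0.058 to 1.69) in neutrophils. For the interaction DESeq2 called 984 genes and no filter 10; leaving out 1 library gave 0 to 1404 genes and 0 to 1 members (Irak3, 1.78, without wild-type neutrophil replicate 1), and leaving out both libraries that stood apart, chosen after seeing the data, gave 1831 genes and 1 member. The Myd88 interaction changed sign with median-ratio scaling (0.061) and DESeq2 (0.058) and lay at -0.21 to 0.23 with 1 library left out; that of Ticam1 was -0.0041 with upper-quartile scaling and -0.56 to 0.40 with 1 library left out. The cause of these changes was not tested. With 2 or 3 libraries a group, lone libraries in these fits are assumed to vary like the others.

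The labels do not say whether replicate numbers pair the libraries. Deviations of same-numbered libraries from their group mean correlated over genes at 0.00393 in LSK cells and at 0.239 and -0.0241 in neutrophils. In a group of 2 libraries these deviations mirror each other, so the correlations cannot decide whether libraries are paired. With the replicate number as a block, Myd88 in LSK cells kept a log2 fold change of 1.05, neutrophils had 334 genes and 0 members called, Irak1 there was 0.047, and the interaction had 0 genes called and a Myd88 value of 0.12.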
